A study of Homo sapiens with 12 samples.

Results

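The 10 genes described here, ATR, ATRIP, ATM, CLSPN, TIMELESS, CHEK1, CHEK2, WEE1, PKMYT1 and CDC25A, encode the kinases, partners and phosphatase of the DNA replication and damage checkpoint. They were taken by name from a table of raw counts for 20771 genes, in all 12 libraries, and all 10 were among the 16515 genes that passed the filter on low counts. RNA was sequenced from EW8-RRM1-KO and TC71-RRM1-KO, human Ewing sarcoma lines whose endogenous RRM1, the large subunit of ribonucleotide reductase (RNR), was disrupted with CRISPR-Cas9 and replaced by a codon-optimized RRM1 transgene under a doxycycline-inducible promoter. Each line is a clone grown from a single cell, so that line and clone cannot be told apart, and all 4 groups carry the knockout, the transgene and its selection. The labels give a line (EW8 or TC71) and a time (0 h or 48 h), with 3 libraries in each of the 4 groups. By the study's description, 0 h is growth with doxycycline and 48 h is growth without it for 48 hours. The comparison asks how the mRNAs of this checkpoint stood 48 hours after removal of the doxycycline that drives the RRM1 transgene. No group lacks the transgene, so effects of RRM1 loss and of doxycycline removal itself cannot be told apart. Deoxynucleotides were not measured in these libraries.

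When replication forks stall, single-stranded DNA coated with RPA recruits ATR through its partner ATRIP, and ATR phosphorylates CHK1 (encoded by CHEK1) with the help of the adaptor claspin (CLSPN) and the fork protein TIMELESS. ATM answers mainly to double-strand breaks and phosphorylates CHK2 (CHEK2). Both arms hold back cyclin-dependent kinases: CHK1 promotes the destruction of the phosphatase CDC25A, which removes the inhibitory phosphates that WEE1 and MYT1 (PKMYT1) place on CDK1, WEE1 acting also on CDK2. Much of this control acts on proteins, through phosphorylation and turnover, and the counts measure mRNA only.

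Total counts per library were between 18468485 and 35698991. Libraries of one group differed by more than counting noise (chi-square per gene from 2.05 to 9.48 over 12 pairs), and edgeR's common biological variation came to 4.17%. The Ewing sarcoma markers CD99, NR0B1, FLI1, STEAP1 and LIPI had 28.8 CPM or more in every library (CPM, counts of a gene per 1000000 counts of its library) and NKX2-2 had 6.85 or more, whereas CCK was between 0.284 and 2.82 CPM. PTPRC and CDH5, of blood and endothelial cells, had at most 6 counts in any library and EPCAM, of epithelium, at most 43. MYOD1 and KRT5 have no row in the table of counts. Counts of RRM1 itself rose in the libraries labelled 48 h, by 2.88 on the log2 scale in EW8 (SE, the standard error, 0.0715) and by 0.65 in TC71 (SE 0.0699) (adjusted p = 3.37e-27 and 2.91e-09). The rise is opposite to the loss of RRM1 that the labels stand for. Whether reads of the codon-optimized transgene were counted as RRM1, and which RNA the rise comes from, was not tested. The RRM1 counts therefore do not check the labels, and 0 h and 48 h below mean the libraries so labelled. Nothing in the labels says that the libraries of a group came from separate cultures. The p-values set a difference against the spread between these libraries, estimated over the 4 groups with information shared between genes.

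Changes were tested with edgeR's quasi-likelihood test over all 12 libraries, with Benjamini-Hochberg adjustment over the 16515 genes, and a gene was called changed at an adjusted p below 0.05. Levels are CPM after TMM scaling, which corrects library totals for RNA composition. Of the 10 checkpoint genes in EW8, 4 rose (ATR, ATM, PKMYT1 and CDC25A), against 37.0% of all genes tested, and 4 fell (CLSPN, CHEK1, CHEK2 and WEE1), against 31.6%. In TC71, 4 rose (CLSPN, TIMELESS, PKMYT1 and CDC25A), against 22.9% of all genes, and 1 fell (WEE1), against 19.2%. The changes were moderate. Log2 fold changes ran from −0.42 (WEE1) to 0.47 (ATM) in EW8 and from −0.28 (WEE1) to 0.84 (PKMYT1) in TC71. None of the 10 passed a fold above 2 in either line, whereas 17.2% of all genes did in EW8 and 4.12% in TC71. The median log2 fold change of the 10 was 0.022 in EW8 and 0.12 in TC71, beside 0.031 and −0.0013 over all genes. The libraries labelled 48 h did not overlap those labelled 0 h for 10 of the 10 genes in EW8, where 71.1% of all genes were so separated, and for 8 of the 10 in TC71, where the share was 49.6%. In bulk RNA, a change in the share of cells of one kind or cell-cycle phase and a change in RNA per cell cannot be told apart.

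**Figure D1:**
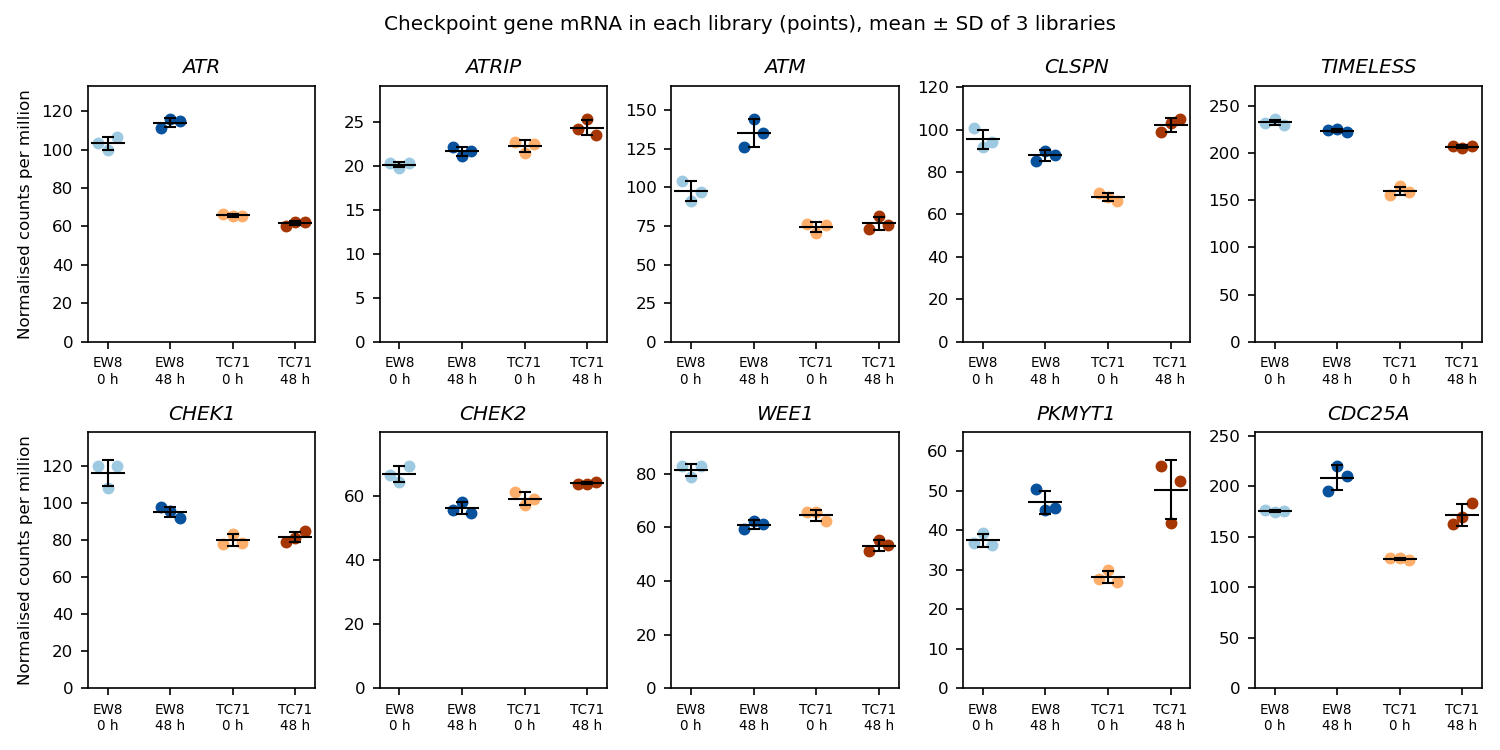
Normalised CPM (vertical axes, each from 0) of the 10 checkpoint genes in the 12 libraries, with 3 points per group and the mean ± SD in black. WEE1 lay lower at 48 h in both lines, PKMYT1 and CDC25A lay higher in both, and CLSPN and TIMELESS rose in TC71 from the lower level they had there at 0 h.

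PKMYT1 and CDC25A rose in both lines, as 17.6% of all genes did, WEE1 fell in both, as 14.3% did, and CLSPN changed in opposite directions, as 2.82% did, although its EW8 value was 0.0050 with total counts alone as the scaling. An interaction term compared the responses of the lines. The response was higher in EW8 than in TC71 for 2 genes, ATR and ATM (25.7% of all genes), and lower in EW8 for 6 genes, CLSPN, TIMELESS, CHEK1, CHEK2, PKMYT1 and CDC25A (22.4%). None of these differences passed a fold of 2, as 8.26% of all genes did. The median difference over the 10 genes was −0.25 on the log2 scale, beside 0.042 over all genes.

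**Figure D2:**
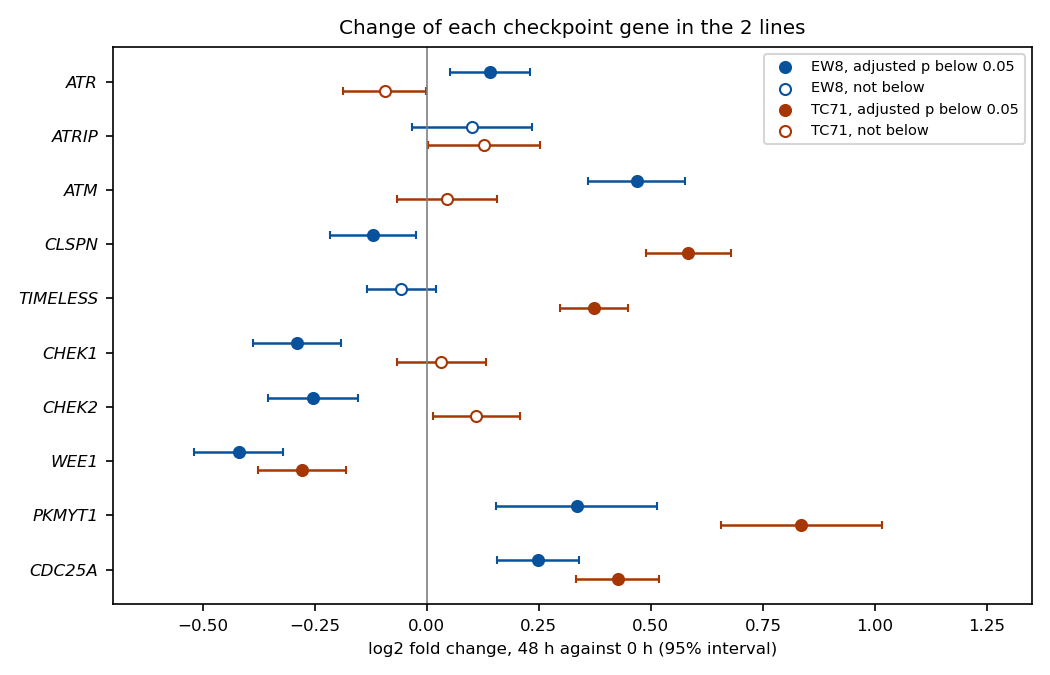
Log2 fold change from 0 h to 48 h (horizontal axis) with its 95% interval for each checkpoint gene in EW8 (blue) and TC71 (brown), with filled points at an adjusted p below 0.05. The largest gap between the lines is that of CLSPN, at −0.12 in EW8 (0.0050 with total counts alone) and 0.58 in TC71, and WEE1 is the gene below 0 and called in both.

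Promoter sequence from RefSeq (GRCh38.p14) was at hand for 8 of the 10 genes, with WEE1 and PKMYT1 not analysed here. E2F factors drive many genes of the G1 to S transition. A window of 300 bases around each annotated start, most of it before the start, was searched on both strands. The letters sought were TTTNNCGC, a loose form of the E2F motif in which N stands for any base. They were found for 3 of the 8 genes, CLSPN, CHEK2 and CDC25A, and for 8.23% of 27305 genes with such a window. The 140 bases around the start of these 3 genes are shown because they hold the motif, and the responses of the genes are given for each in turn. Capitals mark the match, which begins 5 bases before the start in CLSPN (on the other strand), 9 before it in CHEK2 and 44 before it in CDC25A. The regions are chr1:35769969-35770108, chr22:28741811-28741950 and chr3:48188408-48188547, all on the − strand.
CLSPN: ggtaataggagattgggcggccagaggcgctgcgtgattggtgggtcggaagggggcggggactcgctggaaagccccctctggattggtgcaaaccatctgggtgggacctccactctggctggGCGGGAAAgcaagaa
CHEK2: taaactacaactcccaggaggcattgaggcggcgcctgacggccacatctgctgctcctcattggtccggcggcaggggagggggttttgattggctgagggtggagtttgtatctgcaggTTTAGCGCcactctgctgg
CDC25A: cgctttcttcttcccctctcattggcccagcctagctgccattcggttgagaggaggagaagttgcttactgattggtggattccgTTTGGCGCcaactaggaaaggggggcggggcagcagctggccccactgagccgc
The 3 promoters also hold CCAAT, on one strand or the other, as do the windows of ATRIP, ATM, TIMELESS and CHEK1 and those of 39.7% of all genes. The AP-1 letters TGANTCA were in none of the windows of the 8 genes and in those of 9.37% of all genes, and the letters TTTGAA, of the cell-cycle element CHR, were in a window of ATM and in those of 18.2% of all genes. A match is a run of letters and does not show binding.

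ATR (ENSG00000175054), the kinase at the head of the replication arm, is on chromosome 3 (− strand, 142449007 to 142578733) (GRCh38). In EW8 it was at 103.5, 99.67 and 106.6 CPM at 0 h and at 111.2, 115.7 and 115.0 CPM at 48 h. Its levels in TC71 were 66.52, 65.46 and 65.29 CPM at 0 h and 60.38, 62.36 and 62.13 CPM at 48 h. The groups separated upward in EW8 and downward in TC71. In EW8 the log2 fold change was 0.14 (SE 0.0438, adjusted p = 0.00512), a rise of 10.2%, and 0.27 with total counts alone. The call was lost without the EW8 0 h replicate 1 (0.10, adjusted p = 0.0671) and without the EW8 0 h replicate 2 (0.082, adjusted p = 0.0968). In TC71 the value was −0.09 (95% interval −0.187 to −0.001, adjusted p = 0.0986), which did not pass. The response was higher in EW8 by 0.23 (SE 0.0633, adjusted p = 0.00247). Of its exon bases, 9.35% are shared with 2 annotated genes that have no row in the table.

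ATRIP (ENSG00000164053), which brings ATR to RPA-coated DNA, is on chromosome 3 (+ strand, 48446710 to 48467645). Its levels were 20.37, 19.82 and 20.37 CPM in EW8 at 0 h, and 22.22, 21.16 and 21.68 CPM at 48 h. TC71 had 22.76, 21.48 and 22.55 CPM at 0 h and 24.20, 25.33 and 23.60 CPM at 48 h. The 48 h libraries lay above the 0 h libraries in each line, by small amounts. Neither change passed the test, with log2 fold changes of 0.10 (95% interval −0.033 to 0.235, adjusted p = 0.176) in EW8 and 0.13 (0.002 to 0.253, adjusted p = 0.0957) in TC71, and the responses differed by −0.03 (−0.211 to 0.157). With total counts alone as the scaling, both passed, at 0.23 and 0.18. Of the exon bases of ATRIP, 26.7% are shared on the same strand with TREX1, an exonuclease gene that rose by 0.74 in EW8 and 0.74 in TC71, and its part in the ATRIP counts was not tested.

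ATM (ENSG00000149311), the kinase that answers to double-strand breaks, is on chromosome 11 (+ strand, 108223044 to 108369102). EW8 had 104.4, 91.37 and 97.27 CPM at 0 h and 126.3, 144.1 and 135.5 CPM at 48 h. TC71 had 76.50, 70.32 and 75.88 CPM at 0 h and 72.94, 81.35 and 75.76 CPM at 48 h. The EW8 groups stood apart, and the TC71 groups overlapped. The rise in EW8 was 38.3%, a log2 fold change of 0.47 (SE 0.0535, adjusted p = 2.64e-09), the highest among the 10 genes in that line. In TC71 the value was 0.05 (95% interval −0.067 to 0.157, adjusted p = 0.537). The difference of 0.42 (SE 0.0767) passed the test (adjusted p = 2.58e-05).

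CLSPN (ENSG00000092853), which encodes the adaptor claspin, is on chromosome 1 (− strand, 35720218 to 35769978), with the promoter shown above. Its EW8 levels were 100.5, 91.83 and 93.91 CPM at 0 h and 85.18, 90.08 and 88.19 CPM at 48 h. TC71 went from 70.10, 68.06 and 66.57 CPM at 0 h to 98.67, 103.2 and 104.8 CPM at 48 h. The groups of each line did not overlap, and the TC71 libraries moved from below those of EW8 to above the EW8 libraries of 48 h. The rise in TC71 was 49.8%, a log2 fold change of 0.58 (SE 0.0467, adjusted p = 3.05e-12). The fall in EW8 was small, at −0.12 (SE 0.0470, adjusted p = 0.0241). It was lost without the EW8 48 h replicate 1 (−0.10, adjusted p = 0.107) or the EW8 48 h replicate 3 (−0.12, adjusted p = 0.0554), and with total counts alone the EW8 value was 0.0050 (adjusted p = 0.929). The response in EW8 was below that in TC71 by a difference of −0.70 (SE 0.0662, adjusted p = 1.14e-10), the largest difference among the 10 genes.

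TIMELESS (ENSG00000111602), a fork protein that with TIPIN supports CHK1 activation, is on chromosome 12 (− strand, 56416363 to 56449426). It was at 232.1, 235.5 and 229.8 CPM in EW8 at 0 h, and at 223.8, 224.9 and 221.6 CPM at 48 h. In TC71 it was at 155.8, 164.7 and 158.3 CPM at 0 h, and at 207.1, 205.0 and 207.8 CPM at 48 h. TC71 began well below EW8 and stood closer to it at 48 h. The rise in TC71 was 29.5%, a log2 fold change of 0.37 (SE 0.0378, adjusted p = 7.19e-10). In EW8 the value was −0.06 (95% interval −0.133 to 0.020, adjusted p = 0.181). It passed with upper-quartile scaling (−0.10), without the EW8 0 h replicate 2 (−0.08, adjusted p = 0.0492) and without the EW8 0 h replicate 3 (−0.10, adjusted p = 0.0416). With total counts alone it was above 0, at 0.068. The responses differed by −0.43 (SE 0.0533, adjusted p = 3.40e-08).

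CHEK1 (ENSG00000149554), which encodes CHK1, the effector kinase of ATR, is on chromosome 11 (+ strand, 125625163 to 125676255). EW8 levels were 120.0, 107.8 and 119.9 CPM at 0 h and 97.67, 95.50 and 92.01 CPM at 48 h. TC71 levels were 77.88, 83.46 and 78.53 CPM at 0 h and 79.16, 81.20 and 84.64 CPM at 48 h. Every EW8 library of 48 h lay below those of 0 h, and the TC71 groups overlapped. CHEK1 fell in EW8 by 18.2%, with a log2 fold change of −0.29 (SE 0.0484, adjusted p = 2.83e-06), which was −0.16 with total counts alone (adjusted p = 0.00259). The TC71 value was 0.03 (95% interval −0.067 to 0.132, adjusted p = 0.622). The difference was −0.32 (SE 0.0687, adjusted p = 2.03e-04). Of the exon bases of CHEK1, 13.4% are shared, 751 of them with a gene on the other strand that has no row in the table (ENSG00000288907) and 53 with STT3A on the same strand. STT3A fell by 0.28 in EW8 and was at 0.07 in TC71 (adjusted p = 0.145), and the part of these genes in the CHEK1 counts was not tested.

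CHEK2 (ENSG00000183765), which encodes CHK2, the effector kinase of ATM, is on chromosome 22 (− strand, 28687743 to 28742422). At 0 h in EW8 it was at 66.57, 64.50 and 69.42 CPM, against 55.51, 58.25 and 54.67 CPM at 48 h. TC71 libraries had 61.31, 57.32 and 59.04 CPM at 0 h and 63.78, 63.86 and 64.35 CPM at 48 h. The groups separated downward in EW8 and upward in TC71. In EW8 CHEK2 fell by 16.2%, a log2 fold change of −0.25 (SE 0.0496, adjusted p = 2.98e-05), which was −0.13 with total counts alone (adjusted p = 0.0154). In TC71 the value was 0.11 (95% interval 0.013 to 0.209, adjusted p = 0.0633), which passed with total counts alone (0.16), with a minimum of 10 counts in each library (0.12), with the line fitted alone (0.12) and without the EW8 0 h replicate 2 (0.11, adjusted p = 0.0391). The difference of −0.37 (SE 0.0692) passed the test (adjusted p = 4.20e-05). Of its exon bases, 6.52% are shared with HSCB on the other strand, which was at −0.01 in EW8 and 0.08 in TC71 (adjusted p = 0.940 and 0.571). GENCODE lists 8 CHEK2 pseudogene entries, none with a row in the table, so reads from these near copies may be lost from or added to CHEK2.

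WEE1 (ENSG00000166483), the nuclear kinase that holds CDK1 and CDK2 inactive, is on chromosome 11 (+ strand, 9573670 to 9593457). EW8 fell from 82.78, 78.94 and 82.93 CPM at 0 h to 59.39, 62.51 and 61.27 CPM at 48 h. TC71 fell from 65.89, 65.56 and 62.22 CPM to 51.11, 55.17 and 53.44 CPM. Neither line had an overlap between its groups. WEE1 fell by 25.2% in EW8 (log2 fold change −0.42, SE 0.0488, adjusted p = 2.57e-09) and fell by 17.5% in TC71 (−0.28, SE 0.0486, adjusted p = 1.91e-05). The difference of −0.14 between them (95% interval −0.281 to −0.001, adjusted p = 0.0905) did not pass. It passed without the EW8 0 h replicate 2 (−0.20, adjusted p = 0.0134), without the TC71 48 h replicate 1 (−0.17, adjusted p = 0.0489) and with a minimum of 10 counts in each library (−0.16). With total counts alone it was −0.07 (adjusted p = 0.420). GENCODE lists 2 WEE1 pseudogenes, neither with a row in the table, and reads from them may be lost from or added to WEE1.

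PKMYT1 (ENSG00000127564), which encodes MYT1, the membrane-bound kinase that phosphorylates CDK1 beside WEE1, is on chromosome 16 (− strand, 2968024 to 2980479). EW8 libraries had 36.75, 39.24 and 36.20 CPM at 0 h and 50.30, 45.22 and 45.56 CPM at 48 h. TC71 libraries had 27.75, 29.91 and 26.93 CPM at 0 h and 56.26, 41.85 and 52.54 CPM at 48 h. Every library of 48 h lay above those of 0 h in its line, with the TC71 48 h replicate 2 the lowest of its group. PKMYT1 rose by 26.1% in EW8 (log2 fold change 0.33, SE 0.0854, adjusted p = 0.00195) and by 78.5% in TC71 (0.84, SE 0.0850, adjusted p = 2.26e-07), so the genes for the pair of CDK1 inhibitory kinases moved in opposite directions in each line. The rise was smaller in EW8 by a difference of −0.50 (SE 0.121, adjusted p = 0.00199). Of the exon bases of PKMYT1, 31.9% overlap genes on the other strand, KREMEN2 and PAQR4. PAQR4 changed by −0.39 in EW8 and 0.46 in TC71 (adjusted p = 0.00189 and 2.55e-04), and KREMEN2, at 11 to 38 counts per library, by 0.69 in EW8 (adjusted p = 0.0461), with 0.24 in TC71 (adjusted p = 0.477). Whether strand was used in counting is not given in the sources used here, and the part of these genes in the PKMYT1 counts was not tested.

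CDC25A (ENSG00000164045), the phosphatase that WEE1 and MYT1 oppose and that CHK1 targets for destruction, is on chromosome 3 (− strand, 48157146 to 48188417). Its EW8 levels were 176.3, 174.9 and 175.5 CPM at 0 h and 195.3, 220.2 and 209.9 CPM at 48 h. For TC71 they were 128.6, 128.8 and 126.8 CPM at 0 h and 162.4, 169.6 and 183.8 CPM at 48 h. Within each line the 0 h libraries lay close together and below each 48 h library. CDC25A rose by 18.8% in EW8 (log2 fold change 0.25, SE 0.0453, adjusted p = 1.13e-05, and 0.37 with total counts alone) and by 34.4% in TC71 (0.43, SE 0.0456, adjusted p = 2.48e-09). The difference of −0.18 (SE 0.0642, adjusted p = 0.0216) passed, but not without the EW8 48 h replicate 1 (−0.13, adjusted p = 0.0955), without the TC71 48 h replicate 3 (−0.13, adjusted p = 0.102) or with total counts alone (−0.10, adjusted p = 0.161). Its exons overlap no other annotated gene.

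Ratios of genes within a library do not depend on how libraries are scaled to each other. The ratio of WEE1 to PKMYT1, in CPM per kilobase (kb) of the canonical transcript, was 1.25 ± 0.0868 (SD, n = 3) in EW8 at 0 h and 0.748 ± 0.0615 at 48 h. In TC71 it went from 1.32 ± 0.0532 to 0.621 ± 0.122. Per length, WEE1 was thus above PKMYT1 in each of the 6 libraries of 0 h and below it in each of the 6 of 48 h. The ratio of CDC25A to WEE1, the phosphatase to the kinase, went from 2.01 ± 0.0505 to 3.19 ± 0.109 in EW8 and from 1.85 ± 0.0432 to 3.02 ± 0.175 in TC71. Its lowest value at 48 h was 2.87 and its highest at 0 h was 2.07, and the groups of neither line overlapped. ATR to ATM went from 1.68 ± 0.0935 to 1.34 ± 0.0621 in EW8 and from 1.40 ± 0.0606 to 1.27 ± 0.0527 in TC71, with no overlap between the groups of either line. CHEK1 to CHEK2 stayed within the spread in both lines, at 0.774 ± 0.0294 and 0.757 ± 0.0273 in EW8 and 0.604 ± 0.0423 and 0.570 ± 0.0165 in TC71. The ratios are described with no test.

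**Figure D3:**
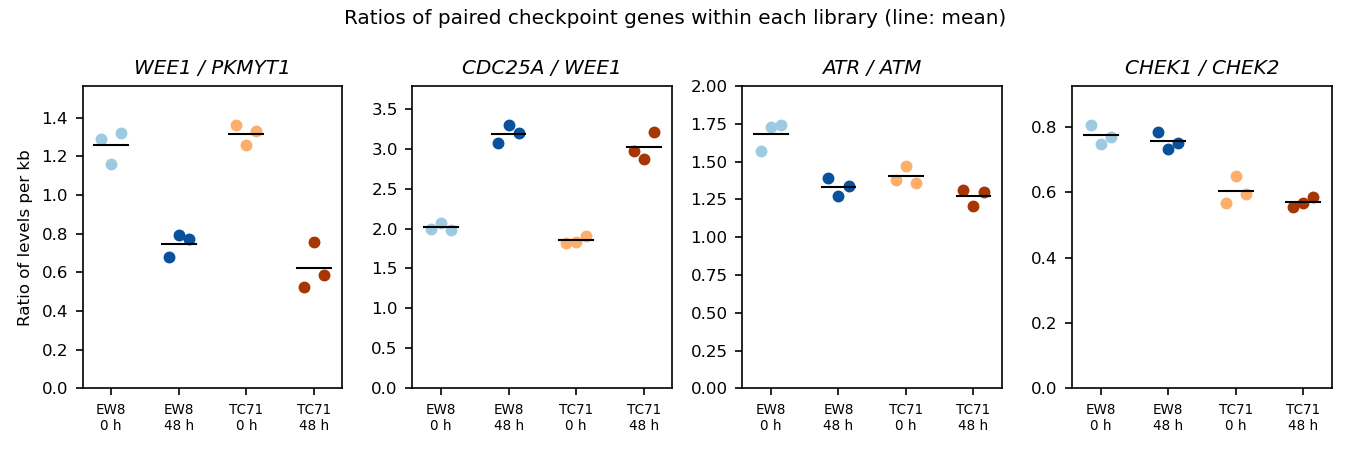
Ratios of the levels per kb of 4 gene pairs within each library (vertical axes, from 0), with 3 points per group and a line at the mean. WEE1 to PKMYT1 is at 1.16 or higher in the 0 h libraries and at 0.794 or lower in those of 48 h, whereas CHEK1 to CHEK2 overlaps between times in both lines.

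In the libraries labelled 0 h, 9 of the 10 genes were higher in EW8 than in TC71, against 32.8% of all genes, and none was lower, against 32.9%. The log2 difference was largest for ATR, at 0.65 (SE 0.0449, adjusted p = 8.15e-15), followed by TIMELESS (0.54), CHEK1 (0.54), CLSPN (0.48), CDC25A (0.46), PKMYT1 (0.41), ATM (0.40), WEE1 (0.34) and CHEK2 (0.18). ATRIP, the exception, was at −0.14 (95% interval −0.272 to −0.010, adjusted p = 0.0537). None passed a fold above 2, as 16.7% of all genes did. The 0 h libraries of the lines did not overlap for 10 of the 10 genes, and 68.3% of all genes were so separated. With total counts alone ATM was at 0.26 and WEE1 at 0.21, and both still passed. CHEK2 no longer passed with total counts alone (0.042) or upper-quartile scaling (0.096). ATRIP passed as lower in EW8 with either of these (−0.28 and −0.22), with a minimum of 10 counts in each library (−0.16), with a fit that was not robust (−0.14), and without the EW8 48 h replicate 3 (−0.15), the TC71 0 h replicate 2 (−0.17) or the TC71 48 h replicate 2 (−0.15). Higher levels in EW8 at 0 h were also seen in other lists described below, for 31 of 41 S phase genes (3 lower, median 0.29), 6 of 7 genes of the kinase family and TTT complex (none lower, median 0.225) and 5 of 6 genes of 14-3-3 proteins (none lower, median 0.14). In the ATR list 7 of 15 were higher and 2 lower, in the ATM list 4 and 4 of 12, in the CDK list 2 and 2 of 9, in the turnover list 6 and 4 of 11, and among G2/M genes 21 and 13 of 54. This comparison uses the same 0 h libraries as the responses, so a 0 h library that is high or low moves both.

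Levels of different genes were compared per kb of transcript. CDC25A was the highest of the 10 in each group, from 33.31 ± 0.287 CPM per kb (SD, n = 3) in TC71 at 0 h to 54.24 ± 3.25 in EW8 at 48 h, and ATRIP the lowest in each, from 4.411 ± 0.0696 to 5.326 ± 0.192. TIMELESS and CHEK2 came next, at 30.45 to 45.07 in the group means. CHEK1, WEE1 and PKMYT1 lay in the middle, and ATR, CLSPN and ATM below them. In EW8 at 0 h CDC25A and TIMELESS overlapped, and in TC71 at 0 h CDC25A with CHEK2, CHEK2 with TIMELESS, and ATR with CLSPN. The order changed at 48 h, where PKMYT1 stood above WEE1 in both lines and overlapped CHEK1. CLSPN and ATM overlapped in EW8 at 48 h (10.32 ± 0.287 and 10.48 ± 0.692), whereas in TC71 at 48 h CLSPN lay above ATR (12.01 ± 0.375 and 7.554 ± 0.132). The other neighbours in the order did not overlap.

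**Figure D4:**
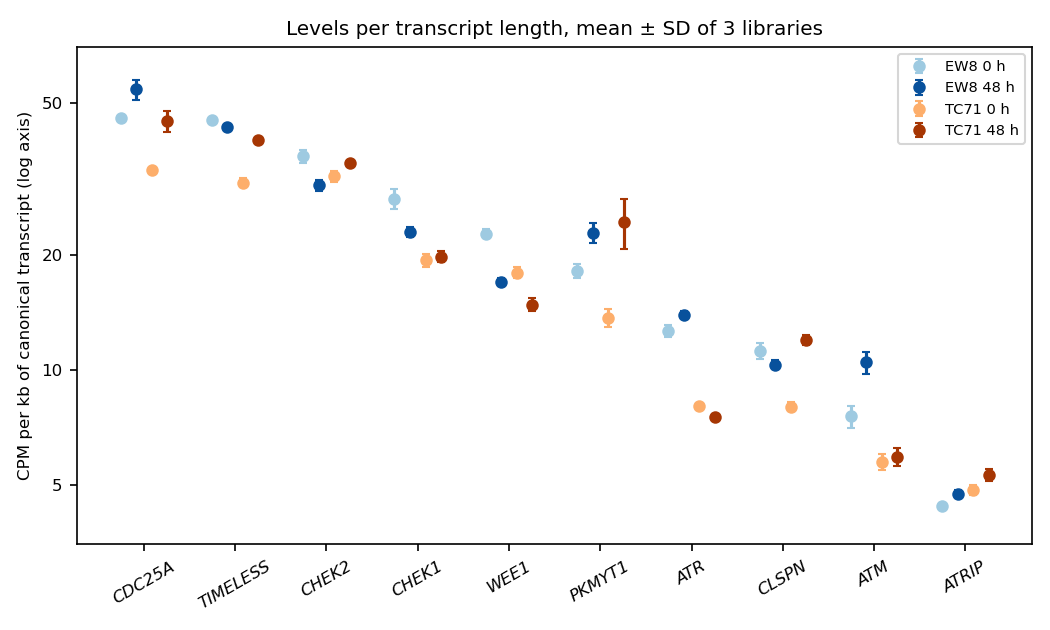
Mean level in CPM per kb of the canonical transcript (vertical log axis) with its SD over 3 libraries for the 10 genes, ordered by their level in EW8 at 0 h, in the 4 groups. CDC25A is at the top and ATRIP at the bottom in each group, about 5 CPM per kb for ATRIP.

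Genes around these 10 were followed in lists, whose counts stand beside the shares of all genes given above (37.0% and 31.6% in EW8, 22.9% and 19.2% in TC71). Of 15 genes that activate ATR (RPA, the 9-1-1 clamp and its loader, TOPBP1, ETAA1 and TIPIN), EW8 had 7 higher and 7 lower and TC71 had 11 higher and 2 lower, with medians of −0.14 and 0.24 on the log2 scale. RPA3, a subunit of RPA, went from 29.58 ± 1.01 to 17.91 ± 0.675 CPM in EW8 (−0.73, SE 0.0704) and was at 0.14 in TC71 (adjusted p = 0.0826). TIPIN, the partner of TIMELESS, fell in EW8 from 43.87 ± 2.46 to 28.36 ± 1.51 CPM (−0.63, SE 0.0619) and rose in TC71 (0.17). RFC2, of the clamp loader, rose in both lines (0.47 and 0.55), as did RHNO1, which binds the clamp (0.45 and 0.27), and RPA2 (0.18 and 0.46). RAD17, which loads the clamp, fell in EW8 and TC71 (−0.43 and −0.32), and so did ETAA1, an activator of ATR (−0.52 and −0.23). The response was higher in EW8 for 1 of the 15 and lower for 9, beside 25.7% and 22.4% of all genes, with a median difference of −0.28.

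Of 12 genes that activate ATM or carry the break signal, EW8 had 4 higher and 5 lower and TC71 had 3 higher and 2 lower, with medians of −0.099 and 0.052. ABRAXAS1, a scaffold of a BRCA1 complex, fell past a fold of 2 in EW8, from 23.09 ± 0.558 to 10.68 ± 0.665 CPM (−1.115, SE 0.0788), and by less in TC71 (−0.46). BRCA1 rose in both lines (0.63 and 0.74). NBN, of the complex that senses breaks, fell in both (−0.46 and −0.14), MDC1, an adaptor at breaks, rose in both (0.40 and 0.11), and MRE11, the nuclease of the NBN complex, rose in TC71 (0.14) and was at −0.04 in EW8 (adjusted p = 0.439). Of the 7 genes of the wider kinase family of ATR and ATM and of the TTT complex that stabilizes them, EW8 had 1 higher and 3 lower and TC71 had 1 lower, with medians of −0.10 and 0.041. SMG1, a kinase of RNA decay, fell in both lines (−0.33 and −0.25), and of the TTT complex TTI1 fell (−0.24) and TTI2 rose (0.275) in EW8, with 0.09 and 0.04 in TC71, which did not pass.

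Downstream, of the 9 further CDC25, CDK and cyclin genes EW8 had 5 higher and 4 lower and TC71 had 6 higher and 1 lower, with medians of 0.195 and 0.234. CCNB1, cyclin B1 of mitotic entry, fell from 256.2 ± 13.9 to 153.7 ± 4.67 CPM in EW8 (−0.74, SE 0.0437) and from 177.8 ± 4.09 to 117.6 ± 4.59 in TC71 (−0.60, SE 0.0439). The E-type cyclins of S phase entry rose in EW8 (CCNE2 0.21, CCNE1 0.34) and had the largest rises of the list in TC71, CCNE2 from 27.56 ± 0.940 to 62.07 ± 4.60 CPM (1.17, SE 0.0586) and CCNE1 from 13.91 ± 0.982 to 26.85 ± 1.49 (0.96, SE 0.0758). In EW8 the largest rises were those of CDC25C (0.68) and CDC25B (0.40), the phosphatases that act on CDK1 at mitotic entry, which also rose in TC71 (0.42 and 0.23). CCNA2, cyclin A2, fell in EW8 (−0.43) and was at 0.10 in TC71 (adjusted p = 0.0520). CCNE2 was the gene of this list past a fold of 2.

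Of 11 genes of checkpoint turnover and recovery, EW8 had 2 higher and 4 lower and TC71 had 2 higher and 6 lower, with medians of −0.024 and −0.185. PLK1, the mitotic kinase that marks claspin and WEE1 for destruction, fell from 299.9 ± 10.5 to 151.7 ± 6.19 CPM in EW8 (−0.98, SE 0.0417) and from 221.3 ± 4.76 to 121.3 ± 3.91 in TC71 (−0.87, SE 0.0417). USP7, a deubiquitinase, fell in both lines (−0.63 and −0.35). PPM1D, the p53-induced phosphatase that ends ATM and CHK2 signalling, rose in both, from 29.16 ± 0.667 to 56.54 ± 3.30 CPM in EW8 (0.95) and from 33.24 ± 1.62 to 42.96 ± 1.77 in TC71 (0.37). CDC14B, a phosphatase, rose in EW8 (0.68) and was at 0.15 in TC71 (adjusted p = 0.165), and USP28, a deubiquitinase, rose in TC71 (0.29) and was at −0.02 in EW8 (adjusted p = 0.733). Of the 14-3-3 proteins, which bind phosphorylated CDC25 and WEE1, 6 of the 7 genes were tested, and 6 fell in EW8 and 5 in TC71 with none higher, with medians of −0.55 and −0.20. YWHAE fell from 547.0 ± 17.6 to 276.8 ± 7.42 CPM in EW8 (−0.98, SE 0.0365) and from 507.3 ± 7.15 to 389.2 ± 6.72 in TC71 (−0.38, SE 0.0358), and YWHAZ (−0.79 and −0.25) and YWHAG (−0.63 and −0.31) fell in both lines.

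The cell-cycle lists of Seurat moved in these libraries too. Of 41 S phase genes tested, CLSPN left out, 35 rose and 3 fell in TC71, with a median of 0.39, and 15 rose and 20 fell in EW8, with a median of −0.098. Of 54 G2/M genes, 13 rose and 22 fell in TC71 and 16 rose and 31 fell in EW8, with medians of −0.054 and −0.20. The response of S phase genes was higher in EW8 for 2 and lower for 30, beside 25.7% and 22.4% of all genes. The part of the cell cycle in the changes of the checkpoint genes was not tested. RFC2 and TIPIN of the ATR list and CDC25C, CDK1, CCNB2 and CCNE2 of the CDK list and AURKA of the turnover list are themselves in the Seurat lists.

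**Figure D5:**
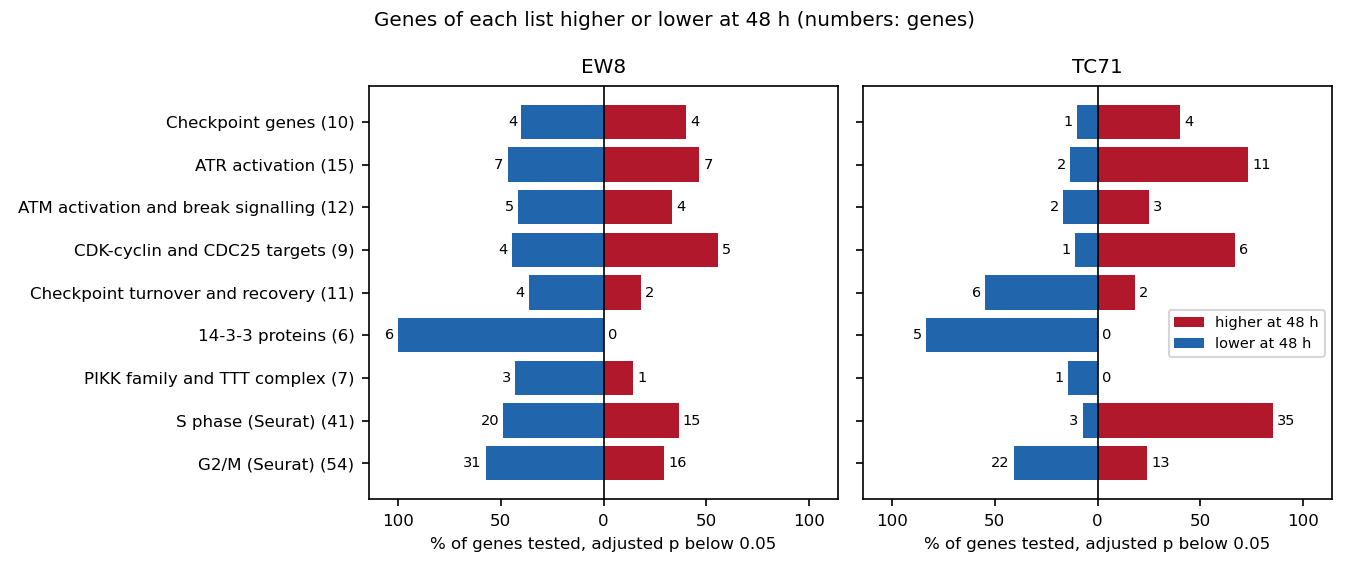
Share of the genes of each list, in percent of those tested, that were higher (red, to the right) or lower (blue, to the left) at 48 h at an adjusted p below 0.05, with the number of genes beside each bar and the number tested after each name. S phase genes were mostly higher in TC71, 35 of 41, and the 14-3-3 genes were lower or not called in both lines.

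Among 13207 genes compared, those whose log2 CPM followed ATR most closely over the 12 libraries were EIF2B1, LIN28B and IPO11, with Pearson r of 0.9987, 0.9985 and 0.9983. For CHEK1 they were PGRMC1 (0.9824), SOD2 (0.9816) and NDUFA6 (0.9804), and for WEE1 SF3B3 (0.9952), RPL35A (0.9941) and RBM44 (0.9933). The 12 libraries form 4 groups and share their scaling, so these values mostly describe the order of 4 group means.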

How the data were processed

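Poly(A) RNA of 12 libraries (2 lines, 0 h and 48 h, 3 libraries each) was sequenced. The authors isolated it with a column kit, prepared stranded mRNA libraries, used FastQC on the reads and STAR to align them to hg38, and deposited raw counts per gene, with no normalization. The counting tool, annotation, strand setting and filter are not given in the sources used here. The smallest sum over the 12 libraries is 21 counts. The files hold no other values.

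Counts were analysed with edgeR 4.0.16 in R 4.3.3: filterByExpr on the groups (at least 10 counts, total of at least 15), TMM factors, and a robust quasi-likelihood fit of 4 group means without a replicate block. The contrasts set 48 h against 0 h within each line, took their difference, and set EW8 against TC71 at 0 h. Benjamini-Hochberg adjustment was over 16515 genes. SE and 95% intervals belong to the fitted log2 values. The study named DESeq2, which was run here as an alternative (1.42.0), beside other scalings, filters, thresholds, a replicate block and leaving out each library. The procedure was also run on simulated counts, drawn with the same spread for all genes and with changes set in EW8 48 h alone. No conclusion here is drawn from that run.

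Per-kb levels used the canonical transcripts of GENCODE release 44, and exon overlaps its exons. Named genes were the 10 members, RRM1, overlapping genes, the 2 genes of each list that rose and fell most in each line among those changed, and the 3 closest profiles of ATR, CHEK1 and WEE1 among genes with a mean of at least 1 CPM. STT3A, TREX1 and PAQR4 were named for their overlap. Cell-cycle lists came from Seurat 5.3.0. The members and lists were chosen with earlier results of these data known. Python 3.11.15 with matplotlib 3.10.9 drew the figures. Protein blots and flow cytometry were not analysed here.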

Additional observations from a re-analysis of the deposited data

Results flagged for a closer look

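The responses of 8 of the 10 genes differed between EW8 and TC71 by the interaction term of edgeR's quasi-likelihood test, 2 higher in EW8 (25.7% of all genes) and 6 lower (22.4%). On the log2 scale, the EW8 response minus that of TC71 was 0.23 for ATR (0.14 against −0.09) and 0.42 for ATM (0.47 against 0.05). It was −0.70 for CLSPN (−0.12 against 0.58), −0.43 for TIMELESS (−0.06 against 0.37), −0.32 for CHEK1 (−0.29 against 0.03) and −0.37 for CHEK2 (−0.25 against 0.11). PKMYT1 and CDC25A, which rose in both lines, differed by −0.50 and −0.18. The S phase list differed between the lines in the same direction as the 6 genes below 0. In it, responses were lower in EW8 for 30 of 41 genes and higher for 2 (22.4% and 25.7% of all genes). Lower and higher counts were 6 and 0 of 6 for the 14-3-3 genes and 9 and 1 of 15 for the ATR list. They were 5 and 2 of 9 for the CDK list and 5 and 3 of 12 for the ATM list. The kinase family list had 2 and 1 of 7 and the turnover list 3 and 4 of 11. Among G2/M genes they were 23 and 16 of 54. The part of these lists in the differences was not tested. Line and clone cannot be told apart.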

How the results depend on the processing

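Requiring a fold above 2 left 0 genes in each count that was above 0. The count lower in TC71 was 2 with upper-quartile scaling, which added ATR (−0.12). The count lower in EW8 at 0 h was 1, ATRIP, with total counts alone, with upper-quartile scaling, with at least 10 counts in every library and with a fit that was not robust, and 0 to 1 when each library was left out. The other counts of higher and lower genes stayed within 1.5 times under the remaining alternatives, DESeq2 included. Of the single values, 834 kept their direction and their side of the threshold, 41 lost and 20 gained the call (the losses outside a fold above 2 were of ATR and CLSPN in EW8, CHEK2 at 0 h and the difference of CDC25A), and 5 changed sign, 1 of them called in the report, CLSPN in EW8 (0.0050 with total counts alone). The others passed the test on neither side: TIMELESS in EW8 (0.068) and the ATRIP difference (0.048) with total counts alone, and, without the TC71 48 h replicate 2, ATM in TC71 (−0.0029, range over libraries left out −0.0029 to 0.080) and the ATRIP difference (0.00034, range −0.077 to 0.00034). With total counts alone the median of all genes in EW8 was 0.16 in place of 0.031, with 7207 genes higher and 4031 lower in place of 6103 and 5226. The counts were 4631 and 2345 in TC71 (3776 and 3179 with TMM) and 3910 and 6940 at 0 h (5415 and 5439).

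Equal replicate numbers did not pair the libraries of a line (correlation of deviations from −0.219 to −0.002). Across the lines, the correlations were −0.045 to 0.167 for equal numbers and −0.187 to 0.139 for unequal ones. With the number as a replicate block, 4 of the 10 genes were higher and 4 lower in EW8, and no call of a checkpoint gene changed. The called values lost when 1 library was left out were 0.14 (ATR in EW8), −0.12 (CLSPN in EW8) and −0.18 (the difference of CDC25A).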
